A study of Homo sapiens with 2 samples.

Results

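The replication-dependent histone genes encode the core histones H2A, H2B, H3 and H4 and the linker histone H1 that package newly copied DNA. A gene was taken as a member when it was protein-coding, its symbol was H1-, H2AC, H2BC, H3C or H4C followed by a number, and its record lay in the histone cluster window of chromosome 6 (2.7 Mb wide) or of chromosome 1 (1 Mb wide; build hg38). The rule used no measured value. It found 66 of the 20037 protein-coding genes in the RefSeq table of GRCh38.p14, of which 6 were H1, 16 H2A, 17 H2B, 13 H3 and 14 H4 genes. Of these, 55 lay on chromosome 6 and 11 on chromosome 1. Genes whose symbols fit the pattern but lay elsewhere were left out.

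The study profiled H3K27ac, acetylation of lysine 27 of histone H3, by chromatin immunoprecipitation sequencing in the human cell line F36P, derived from an erythroid leukaemia, in a series on HDAC7 as a target in acute erythroid leukaemia. The ERG library (titled AM-ERG, genotype ERG overexpression) came from cells carrying the retroviral construct MSCV-PIG-AM-ERG. The Vector library (genotype WT) came from cells carrying MSCV-PIG. Both cultures had 4 days of puromycin at 1 µg/ml, so they share the vector backbone and the drug. What AM stands for was not established here, and peaks do not measure ERG expression, so that label was not checked. There was 1 library per group, so no difference below has a replicate check, no test between groups was made, and each difference compares these 2 libraries rather than the conditions. All intervals are 95% intervals that cover counting error only.

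In the human genome these genes sit in a large cluster on chromosome 6 and a smaller one on chromosome 1, carry short messages without introns or poly(A) tails, and are transcribed together in S phase. Their promoters are known to use NPAT, which is activated by cyclin E with CDK2, at nuclear bodies that also hold the processing factors CASP8AP2 (FLASH), SLBP and the U7 snRNP proteins LSM10 and LSM11. H2A and H2B genes often stand head to head and share an octamer element bound by POU2F1 (Oct-1), H4 promoters are bound by HINFP, and CCAAT boxes and TATA boxes are common in the other families. H3K27ac marks nucleosomes next to active promoters and enhancers.

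The deposited peak lists held 19671 peaks covering 15.01 Mb in the ERG library against 9161 peaks covering 5.30 Mb in the Vector library. Per-library read totals are not part of the lists. The number of fragments at each summit, and the background there, could be worked back from the deposited fold and p-value. The lowest background of any peak in a list was taken as that library's genome-wide background, which was not measured otherwise. It was 2.31 for the ERG library against 1.6 for the Vector library. A ratio of fragments divided by the quotient of these backgrounds, 1.44, is called scaled. Scaling does not take the local background into account, and the direction between libraries is different when it is (given with the local background). Of 12 erythroid marker genes, 9 carried peaks in both libraries, among them GATA1, KLF1 and TFRC. Fibroblast markers did so for 0 of 4, lymphoid markers for 0 of 4 and liver markers for 0 of 4, although CD79A and APOA1 had an ERG-library peak only.

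The members lay in 5 blocks separated by more than 200 kb. Block 1 was the pair H2AC1 and H2BC1 (chr6:25726063-25727345). Block 2 ran from H1-1 to H4C8 (chr6:26017032-26285534) with 32 members in 268.5 kb. Block 3 ran from H2BC11 to H2AC12 (chr6:27132316-27147562) with 5 members. Block 4 ran from H2BC13 to H2BC17 (chr6:27807479-27893891) with 16 members in 86.4 kb. Block 5 was the chromosome 1 cluster from H2BC18 to H2AC21 (chr1:149782689-149887965) with 11 members in 105.3 kb.

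The promoter sequences below show what the members share before any value is read, and were taken from RefSeq (GRCh38.p14). Capitals mark matches on either strand to TTTGCAT (the core of the octamer element), CCAAT (found in many promoters) or TATAAA (a form of the TATA box). They also mark CCGGAAG, a word with the core that ETS factors such as ERG bind, and the similar word CAGGAAG. The first 6 are the whole stretch between the start sites of a head-to-head H2A and H2B pair, on the plus strand. They were chosen because H2BC21 / H2AC20 stands for the chromosome 1 cluster, H2AC15 / H2BC15 had the highest Vector-library value, H2BC8 / H2AC8 had 1 ERG-library peak across both start sites, H2BC13 / H2AC13 and H2AC14 / H2BC14 are close copies that differed in their peaks, and H2AC1 / H2BC1 had none. Their positions are chr1:149886683-149886917, chr6:27838376-27838568, chr6:26216689-26216920, chr6:27807930-27808172, chr6:27814778-27815021 and chr6:25726563-25726776.
H2BC21 / H2AC20: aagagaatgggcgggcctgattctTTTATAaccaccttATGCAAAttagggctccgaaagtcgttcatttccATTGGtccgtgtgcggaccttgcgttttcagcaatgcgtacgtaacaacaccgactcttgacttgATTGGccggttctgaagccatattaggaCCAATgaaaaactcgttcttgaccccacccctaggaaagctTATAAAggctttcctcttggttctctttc
H2AC15 / H2BC15: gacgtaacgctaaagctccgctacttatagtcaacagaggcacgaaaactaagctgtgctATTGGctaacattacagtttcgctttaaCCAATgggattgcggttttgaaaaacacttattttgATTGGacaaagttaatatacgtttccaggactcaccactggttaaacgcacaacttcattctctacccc
H2BC8 / H2AC8: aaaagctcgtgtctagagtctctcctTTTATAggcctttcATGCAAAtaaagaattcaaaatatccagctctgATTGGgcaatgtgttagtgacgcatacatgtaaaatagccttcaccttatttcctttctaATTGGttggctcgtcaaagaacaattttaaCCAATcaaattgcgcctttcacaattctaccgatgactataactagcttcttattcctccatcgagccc
H2BC13 / H2AC13: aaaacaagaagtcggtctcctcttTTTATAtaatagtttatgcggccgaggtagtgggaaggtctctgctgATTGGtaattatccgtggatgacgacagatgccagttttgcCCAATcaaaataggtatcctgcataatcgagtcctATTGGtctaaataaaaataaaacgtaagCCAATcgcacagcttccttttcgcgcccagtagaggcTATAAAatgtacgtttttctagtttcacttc
H2AC14 / H2BC14: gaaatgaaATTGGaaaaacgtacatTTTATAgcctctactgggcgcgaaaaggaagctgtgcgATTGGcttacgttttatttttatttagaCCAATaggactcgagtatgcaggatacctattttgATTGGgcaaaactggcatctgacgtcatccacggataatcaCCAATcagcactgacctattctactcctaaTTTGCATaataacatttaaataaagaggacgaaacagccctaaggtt
H2AC1 / H2BC1: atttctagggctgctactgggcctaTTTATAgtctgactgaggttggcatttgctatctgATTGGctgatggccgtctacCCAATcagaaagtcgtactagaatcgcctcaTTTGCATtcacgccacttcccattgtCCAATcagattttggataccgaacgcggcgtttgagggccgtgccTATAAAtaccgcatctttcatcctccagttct

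The next 4 are the 250 bases before the start site, on the strand of the gene, for 4 genes that the results below turn on. H1-2 (chr6:26056471-26056720, minus strand) had the highest scaled ratio between the strongest peaks of the libraries, and H4C14 (chr1:149832407-149832656, plus strand) the lowest. H4C11 (chr6:27823842-27824091, plus strand) was marked by ERG-library peaks alone, and H4C6 (chr6:26240143-26240392, plus strand) had no peak in either library.
H1-2: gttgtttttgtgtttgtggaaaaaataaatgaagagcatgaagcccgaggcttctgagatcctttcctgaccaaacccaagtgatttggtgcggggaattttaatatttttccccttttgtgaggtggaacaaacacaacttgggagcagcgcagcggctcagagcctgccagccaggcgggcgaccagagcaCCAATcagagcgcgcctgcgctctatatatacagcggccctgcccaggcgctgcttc
H4C11: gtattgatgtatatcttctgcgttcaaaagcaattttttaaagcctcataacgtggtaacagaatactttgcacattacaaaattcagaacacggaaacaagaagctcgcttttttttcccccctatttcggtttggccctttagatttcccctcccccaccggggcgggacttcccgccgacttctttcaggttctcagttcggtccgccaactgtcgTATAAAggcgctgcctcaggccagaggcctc
H4C14: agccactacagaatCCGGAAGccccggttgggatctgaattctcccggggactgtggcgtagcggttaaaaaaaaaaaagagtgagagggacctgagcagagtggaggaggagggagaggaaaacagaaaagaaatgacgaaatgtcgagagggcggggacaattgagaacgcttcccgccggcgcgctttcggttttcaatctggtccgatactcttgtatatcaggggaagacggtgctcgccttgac
H4C6: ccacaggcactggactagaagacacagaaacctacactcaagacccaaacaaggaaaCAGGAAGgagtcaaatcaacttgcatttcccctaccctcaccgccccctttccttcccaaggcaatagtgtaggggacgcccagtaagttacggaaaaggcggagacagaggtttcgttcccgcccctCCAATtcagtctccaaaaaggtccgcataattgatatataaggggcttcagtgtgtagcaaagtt

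A promoter window of 250 bases before to 50 after the start site was listed for 61 members. It was not used for H4C1, H4C3, H2AC12, H3C11 and H3C12. The octamer core TTTGCAT lay in 25 of 61 member windows, 41.0%, against 3.74% of all 15842 windows. It was present in 11 of 15 H2A and 14 of 17 H2B windows and in 0 of 6 H1, 0 of 11 H3 and 0 of 12 H4 windows. CCAAT lay in 52 of 61 member windows, 85.2%, against 36.4% of all, and was present in every H1, H2A, H2B and H3 window but in 3 of 12 H4 windows. TATAAA lay in 42 of 61 (68.9%) against 9.65%. The ETS-type word CCGGAAG lay in 4 of 61 (6.56%) against 14.2% of all windows, in H1-4, H4C9, H4C14 and H4C15. CAGGAAG lay in 2 of 61 (3.28%) against 12.6%, in H2AC15 and H4C6. A match is a word in the sequence and not a shown binding site.

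Most members carried H3K27ac at their ends in both libraries, and every member with a Vector-library peak also had one in the ERG library. A peak counted for a gene when it overlapped the 1 kb on either side of the start or the end of the gene record. In the ERG library 55 of 66 members had such a peak, 83.3% (72.1 to 91.4), against 45.8% of all protein-coding genes. In the Vector library 42 of 66 did, 63.6% (50.9 to 75.1), against 30.5%. Both libraries had one at 42 members (63.6%, against 30.2% of all genes), the ERG library alone at 13 (19.7%, against 15.6%), the Vector library alone at 0 (against 0.354%) and neither at 11 (16.7%, against 53.8%). The share with a peak in the ERG library alone was therefore near that of all genes. Among the 24 members without a Vector-library peak, 13 had one in the ERG library, 54.2% (32.8 to 74.4), against 22.5% of the 13917 such genes in all. When the ERG list was limited to as many top-scoring peaks as the Vector list holds, 4 members kept an ERG-library peak without a Vector-library one (H2AC4, H3C8, H4C11 and H4C12) and 2 in the Vector library alone (H3C6 and H2BC9), beside 6.16% and 3.66% of all genes. Members share peaks, so these intervals treat neighbouring genes as more independent than they are.

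**Figure D1:**
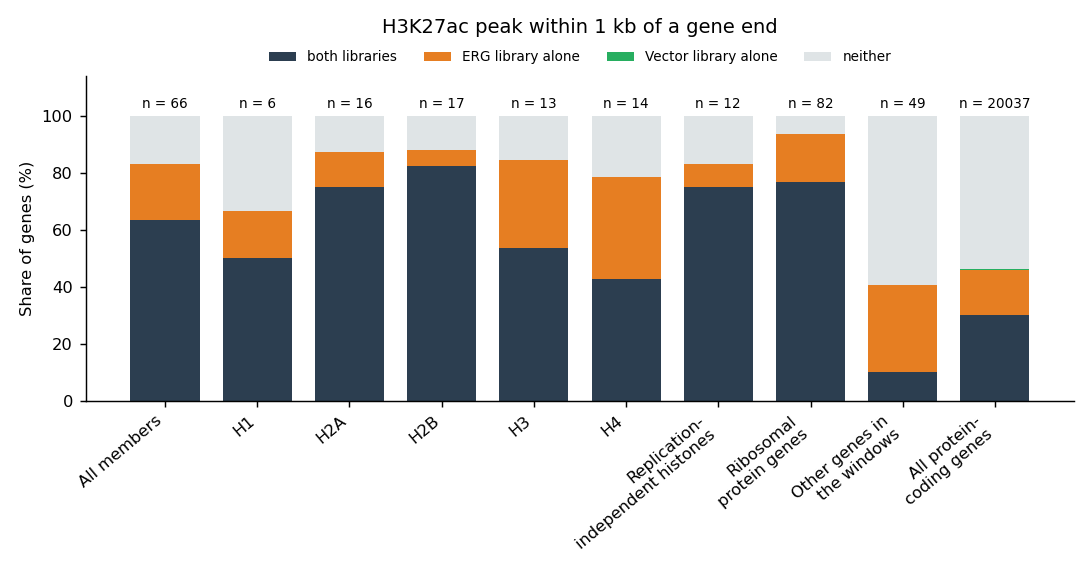
Share of genes (y axis, percent) with a peak within 1 kb of a gene end in both libraries, the ERG library alone, the Vector library alone or neither, for all 66 histone genes, each family, 12 replication-independent histone genes, 82 ribosomal protein genes, 49 other genes in the cluster windows and all 20037 protein-coding genes. H2B has the tallest dark segment among the histone families (14 of 17 with a peak in both) and H4 the shortest (6 of 14).

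The records of most members are short, which leaves little sequence for a peak to fall on. Among the 470 other protein-coding genes with a record of at most 1000 bp, 45 had an ERG-library peak at a gene end, 9.57% (7.07 to 12.6), and 33 a Vector-library peak, 7.02%. Ribosomal protein genes, a set that is active in nearly all cells, had peaks in both libraries at 63 of 82 genes (76.8%, against 30.2% of all genes). The ERG library alone had one at 14 (17.1%, against 15.6%). These 14 were 73.7% (48.8 to 90.9) of the 19 ribosomal protein genes without a Vector-library peak, beside 54.2% of such members. The other 49 protein-coding genes of the cluster windows had peaks in both at 5 genes (ABT1, BTN2A1, ZNF165, ZNF184 and ZSCAN12), in the ERG library alone at 15 and in neither at 29. These shares were 10.2%, 30.6% and 59.2%, against 30.2%, 15.6% and 53.8% of all genes.

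Of the 6 linker histone genes, 3 had a peak in both libraries (50%, against 30.2% of all genes), 1 had an ERG-library peak only (16.7%, against 15.6%) and 2 had none. H1-2 (chr6:26055740-26056470), a linker histone made in most dividing cells, had 120 fragments at the summit of its strongest end peak in the ERG library against 31 in the Vector library, a scaled ratio of 2.68 (1.79 to 4.12), with 1482 and 1040 bp covered at its ends. H1-4 (chr6:26156329-26157115) had 88 and 37 fragments, a scaled ratio of 1.65 (1.11 to 2.49). H1-3 (chr6:26234212-26234987) had 51 and 14 fragments, the lowest Vector-library value of any member, a scaled ratio of 2.52 (1.38 to 4.94). H1-5 (chr6:27866792-27867588) had 62 fragments and 939 bp covered in the ERG library and no peak in the Vector library, where the nearest peak lay 25115 bp away. H1-1 (chr6:26017032-26017787) and the testis-specific H1-6 (chr6:26107412-26108135) had no peak within 1 kb in either library. The ERG-library fragment number was above the Vector-library one at each of the 3 linker genes with a peak in both. After scaling this direction was found at 92.1% of all genes with a peak in both libraries, so it is not particular to linker genes. The fold over the local background was higher in the ERG library at H1-2 and H1-3 and lower at H1-4 (3.82 against 4.25).

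**Figure D2:**
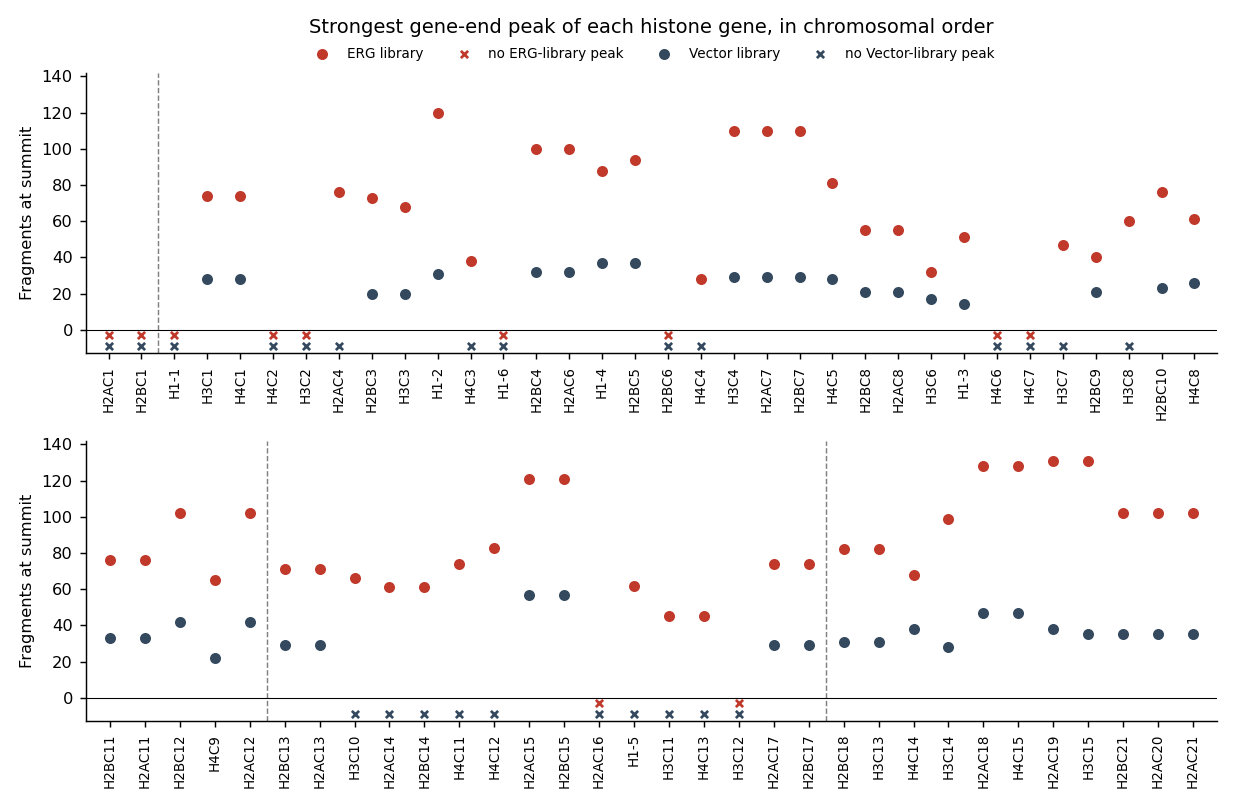
Fragments at the summit of the strongest gene-end peak (y axis) for each of the 66 histone genes in chromosomal order (x axis), with red points for the ERG library, blue points for the Vector library and crosses where a library has no peak; dashed lines part the blocks. At each of the 42 genes with both points the red one is higher, without scaling. After scaling the ERG library is higher at 92.1% of all protein-coding genes with a peak in both. The genes of the last block, on chromosome 1, all have both points.

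H2A and H2B genes encode the histones that form the dimers of the nucleosome. Of 16 H2A genes 12 had a peak in both libraries, 2 had an ERG-library peak only (H2AC4 and H2AC14) and 2 had none (H2AC1 and H2AC16). Of 17 H2B genes 14 had both, 1 had the ERG library alone (H2BC14) and 2 had neither (H2BC1 and H2BC6). The shares with both were 75% for H2A and 82.4% for H2B, against 30.2% of all genes. Those with the ERG library alone were 12.5% and 5.88%, against 15.6%. For H2A the median summit value of genes with a peak was 101 fragments (ERG library) and 34 (Vector library), and for H2B 76 and 30. A head-to-head pair often shares its strongest peak, so such genes are given together.

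H2AC15 and H2BC15 (chr6:27837880-27839110) had the highest Vector-library value of any member, 57 fragments on the H2BC15 side, against 121 on the H2AC15 side in the ERG library. Their stretch between the start sites, printed above, holds CCAAT on either strand 3 times but neither TTTGCAT nor TATAAA. H2AC7 and H2BC7 (chr6:26198784-26199988), with the long H3C4 record that ends at the start of H2AC7, had 110 and 29 fragments, a scaled ratio of 2.63 (1.73 to 4.10). H2BC12 and H2AC12 (chr6:27138293-27147562) had 102 and 42 fragments, a scaled ratio of 1.68 (1.16 to 2.47). H2BC4 and H2AC6 (chr6:26113170-26124690) had 100 fragments in the ERG library at the H2BC4 side and 32 in the Vector library at the H2AC6 side, so these are different peaks. H2BC8 and H2AC8 (chr6:26216200-26217437) had 55 and 21 fragments, with 1740 bp covered in the ERG library against 1108 and 1066 bp. H2BC10 (chr6:26272931-26273412) had 76 and 23 fragments and 1463 against 299 bp covered. In each of these cases the ERG-library fragment number was the higher, as it was after scaling at 92.1% of all genes with a peak in both libraries.

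The remaining H2A and H2B genes on chromosome 6 were as follows. H2BC11 and H2AC11 (chr6:27132316-27133535) had 76 and 33 fragments, and H2AC17 and H2BC17 (chr6:27892699-27893891) had 74 on the H2BC17 side in the ERG library and 29 on the H2AC17 side in the Vector library, while overlapping peaks gave 73 and 29 and 74 and 26. H2BC3 (chr6:26043227-26043713) had 73 fragments at an ERG-library peak that no Vector-library peak overlapped, and 20 at another Vector-library peak, 299 bp from its record. H2BC9 (chr6:26251614-26252075) had 40 and 21, a scaled ratio of 1.32 (0.760 to 2.36) that was not distinguishable from 1 at this depth. H2AC4 (chr6:26033092-26033618) had 76 in the ERG library and no Vector-library peak within 10394 bp. H2BC5 (chr6:26158121-26171349) had 94 and 37 fragments at the far end of its 13229 bp record, so this peak is not at its start.

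H3 and H4 genes, whose products form the central tetramer of the nucleosome, had a Vector-library peak at 7 of 13 and 6 of 14 genes. These were 53.8% and 42.9%, against 30.5% of all genes. For H4 the interval of the share with a Vector-library peak was 17.7 to 71.1%, and for H2B it was 56.6 to 96.2%. A peak in the ERG library alone was found at 4 H3 genes (H3C7, H3C8, H3C10 and H3C11) and 5 H4 genes (H4C3, H4C4, H4C11, H4C12 and H4C13). These were 30.8% (9.09 to 61.4) and 35.7% (12.8 to 64.9), against 15.6% of all genes. H3C8 (chr6:26270918-26271413) had 60 fragments and 1108 bp covered in the ERG library, and H3C7 (chr6:26250142-26250635) had 47 fragments and 846 bp. H4C12 (chr6:27831174-27831560) had 83 fragments, the highest value among members without a Vector-library peak, and H4C11 (chr6:27824092-27824480) had 74. H3C10 had 66 fragments, H4C13 and H3C11 had 45 from 1 shared peak, H4C3 had 38, and H4C4 had 28, the lowest ERG-library value of any member. The Vector-library peaks nearest to H4C12 and H4C11 lay 5611 and 12691 bp away. The median over the 13 members with a peak in the ERG library alone was 61 fragments (range 28 to 83), against 30 over the 3131 such genes in all. Their local background ran from 8.83 (H4C4) to 27.2 (H1-5), against a median of 8.64 over all genes with an ERG-library peak. Their deposited fold over it ran from 1.93 (H3C11 and H4C13) to 3.27 (H4C12), against a median of 5.17, so these peaks were not strong relative to local background.

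Among H3 and H4 genes with a peak in both libraries, H3C1 and H4C1 (chr6:26020451-26022050) had 74 and 28 fragments, a scaled ratio of 1.83 (1.17 to 2.94). These strongest peaks lay over H3C1, 523 bp (ERG library) and 543 bp (Vector library) from the H4C1 record. The overlapping peaks over H4C1 itself gave 44 and 26 fragments, a scaled ratio of 1.17 (0.706 to 1.98), an interval that holds 1. H4C5 (chr6:26204610-26205021) had 81 and 28 fragments, but at different peaks, and 1893 against 351 bp covered, the largest difference in length of any member. H4C8 (chr6:26285126-26285534) had 61 and 26 fragments, a scaled ratio of 1.63 (1.01 to 2.68). H3C6 (chr6:26224178-26227473) had 32 and 17 fragments, a scaled ratio of 1.304 (0.703 to 2.503), so a difference was not detectable at this depth. The Vector-library peak of H3C6 covered 48 bp of its end windows. H3C3 (chr6:26045384-26045869) had 68 and 20 fragments, at peaks 642 and 842 bp from its record, and H4C9 (chr6:27139282-27139678), which lies inside the long H2BC12 record, had 65 and 22.

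The 11 members with no peak in either library were H2AC1, H2BC1, H1-1, H3C2, H4C2, H1-6, H2BC6, H4C6, H4C7, H2AC16 and H3C12. H2AC1 and H2BC1, known as testis-specific genes, lay alone in block 1, 26479 bp and 27193 bp from the nearest ERG-library peak. Between their start sites lie the octamer core, CCAAT 3 times and 2 copies of TATAAA, as printed above. H4C6 lay 4548 bp from an ERG-library peak, H4C7 2736 bp and H2BC6 4052 bp. Of the others, H2AC16 and H3C2 were just outside the 1 kb window, 1129 and 1139 bp from an ERG-library peak. Just inside it, H3C11 had its ERG-library peak 713 bp away, over H4C13, and H4C3 had one 268 bp away. H3C7 and H3C10 would have had a Vector-library peak with a wider window, since one lay 1089 and 1259 bp away.

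All 11 members on chromosome 1 had a peak in both libraries (100%, 71.5 to 100), as did all 5 of block 3, against 30.2% of all genes. In block 4, 6 of 16 members had both, 8 had the ERG library alone (50%, against 15.6% of all genes) and 2 had neither. Of its 10 members without a Vector-library peak 8 had one in the ERG library, 80.0% (44.4 to 97.5). This share was 22.5% for all such genes and 73.7% (48.8 to 90.9) for such ribosomal protein genes. Some of these 8 share peaks (H2AC14 with H2BC14, and H3C11 with H4C13). With the ERG list limited to the Vector list's length, only H4C11 and H4C12 of them kept an ERG-library peak. In block 2, 20 of 32 had both, 5 the ERG library alone and 7 neither. Peaks covered 8.65% of block 2 in the ERG library against 3.38% in the Vector library, 19.7% and 12.1% of block 3, 10.1% and 4.26% of block 4, and 12.5% and 5.17% of block 5.

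On chromosome 1, summit fragments ran from 68 to 131 in the ERG library (median 102) and from 28 to 47 in the Vector library (median 35). These numbers are not scaled by the genome background, and several of the 11 genes share a peak. H2AC19 (chr1:149851061-149851594) had 131 and 38 fragments, a scaled ratio of 2.39 (1.65 to 3.52), and H3C15 (chr1:149852608-149853125) had 131 and 35 at its strongest peaks, which are different peaks. H2AC18 (chr1:149842218-149842750) had 128 and 47, a scaled ratio of 1.89 (1.34 to 2.69). H3C14 (chr1:149840687-149841208) had 99 and 28 fragments at different peaks, the first of them at H2AC18, and 79 and 28 at its overlapping peak. H2BC21, H2AC20 and H2AC21 (chr1:149884459-149887965) shared a peak with 102 and 35 fragments, a scaled ratio of 2.02 (1.36 to 3.05), and H2BC18 and H3C13 (chr1:149782689-149813693) one with 82 and 31. H4C14 (chr1:149832657-149833052) had 68 and 38 fragments, a scaled ratio of 1.24 (0.821 to 1.90), an interval that holds 1. This was the lowest scaled ratio of any member when strongest peaks were compared. H4C15 (chr1:149844488-149861240) has a long record, and its strongest peak, with 128 and 47 fragments, was the one shared with H2AC18 at the far end. The peak at its own start had 65 and 36 fragments, a scaled ratio of 1.25 (0.820 to 1.94), an interval that also holds 1.

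Several chromosome 1 genes are copies of each other, so a read from these stretches can fit more than 1 place. The promoter windows of H4C14 and H4C15 were identical at 300 of 300 bases, those of H2AC18 and H2AC19 at 299 of 299 and those of H3C14 and H3C15 at 296 of 296. The labels and notes used here do not say how the authors placed such reads. The separate values of these 6 genes are therefore uncertain, and the same holds for H4C11 and H4C12, identical at 98.3% of bases. H2AC13 and H2AC14 were identical at 88.9% and H2BC13 and H2BC14 at 86.7%, and the members of these pairs differed. H2BC13 and H2AC13 (chr6:27807479-27808667) had 63 and 29 fragments at the overlapping peaks on the H2BC13 side and 71 and 26 on the H2AC13 side, whereas H2AC14 and H2BC14 (chr6:27814302-27815489) had 61 in the ERG library and no Vector-library peak within 5510 bp. The stretches between their start sites, printed above, hold TTTGCAT 1 time in H2AC14 / H2BC14 and 0 times in H2BC13 / H2AC13, CCAAT 5 and 4 times, and TATAAA 1 and 2 times.

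Peaks at histone genes stood beside the start site rather than over it. A peak lay within 1 kb of the start site at 50 members in the ERG library, and it covered the start base itself at 14 of them, 28.0% (16.2 to 42.5), against 62.5% of 7453 other protein-coding genes. In the Vector library 2 of 38 members did so, 5.26% (0.644 to 17.7), against 33.8% of 5034. At 250 bp downstream, peaks covered 49 of 50 members in the ERG library (98.0%, against 83.3%) and 29 of 38 in the Vector library (76.3%, against 76.2%). At 500 bp upstream they covered 68.0% of members in the ERG library against 36.3%, and 55.3% in the Vector library against 21%. The lower coverage at the start was thus seen in both libraries. The higher share 500 bp upstream was seen mainly at members in head-to-head pairs, with 100% (ERG library) and 87.5% (Vector library). In such pairs this point lies beyond the start of the partner gene. Members outside pairs had 50% (31.9 to 68.1) for the ERG library, against 36.3% of other genes. For the Vector library they had 31.8% (13.9 to 54.9), against 21%. Both intervals hold the share of other genes.

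**Figure D3:**
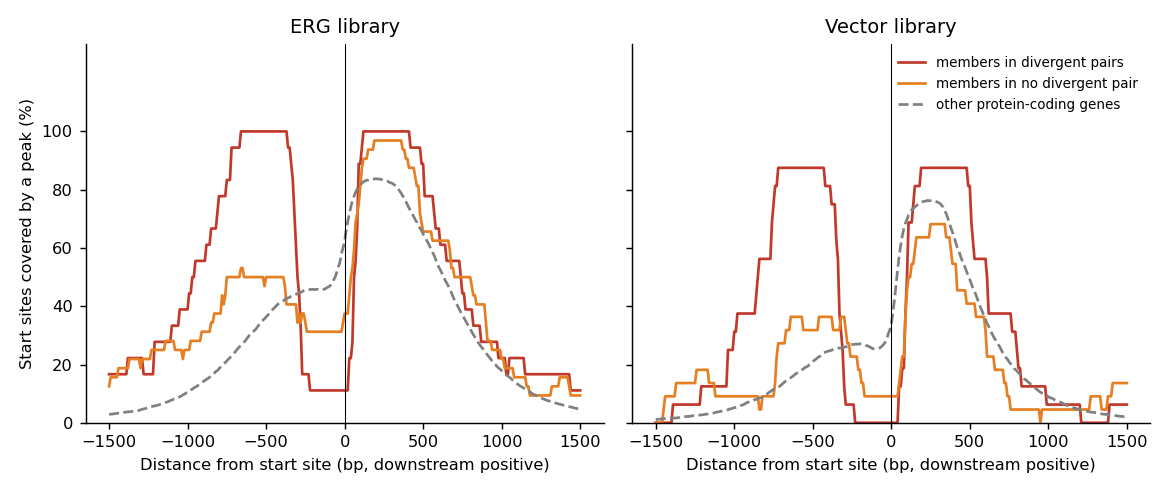
Share of start sites covered by a peak (y axis, percent) by distance from the start site (x axis, bp, downstream positive), for histone genes in head-to-head pairs, other histone genes and other protein-coding genes, in each library. Histone genes in pairs have a plateau on either side and a trough at and before the start, where 11.1% are covered in the ERG library against 0% in the Vector library.

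The trough was deepest at head-to-head pairs. Start sites of 10 H2A and H2B pairs (20 members) lay 193 to 247 bp apart (median 237). In the ERG library 8 of these pairs had a separate peak on either side, 1 had a single peak over both starts (H2BC8 / H2AC8) and 1 had none (H2AC1 / H2BC1). In the Vector library 6 had a peak on either side, H2AC7 / H2BC7 had one at the H2AC7 side, H2BC4 / H2AC6 had one at the H2AC6 side, and H2AC1 / H2BC1 and H2AC14 / H2BC14 had none. No base between the starts was covered in 9 of 10 pairs in the ERG library against 10 of 10 in the Vector library. Where both sides had a peak, the gap between them was 305 to 444 bp in the ERG library (median 363) and 346 to 518 bp in the Vector library (median 421.5). Apart from H2BC8 / H2AC8 in the ERG library, the stretches between start sites printed above were thus free of peaks.

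**Figure D4:**
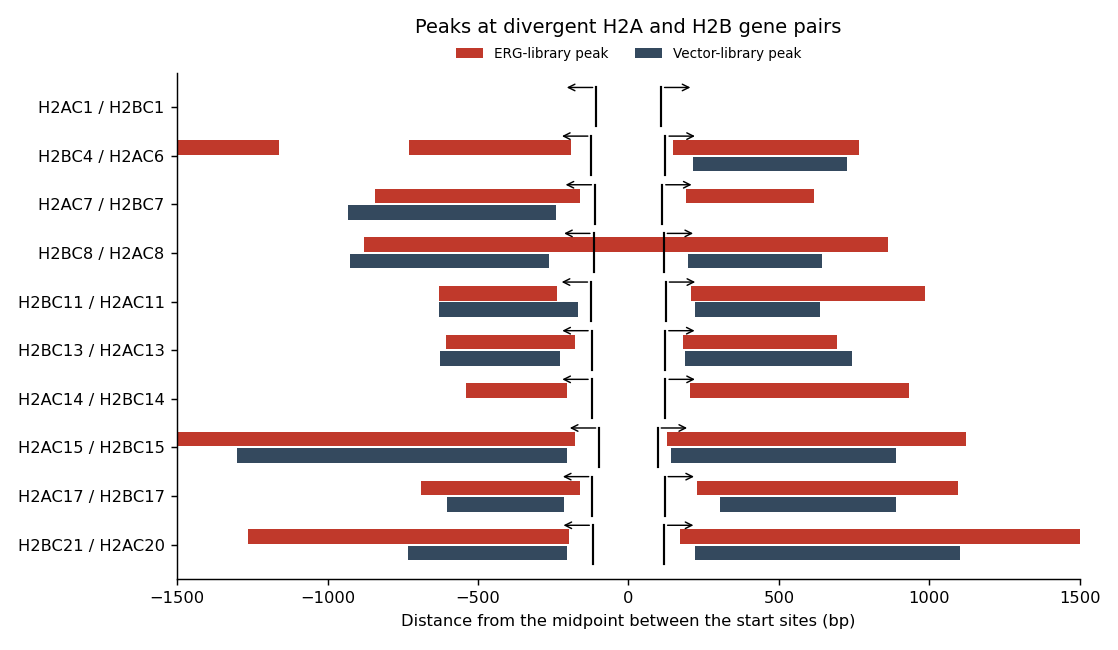
Peaks of the ERG library (red bars) and the Vector library (blue bars) at the 10 head-to-head H2A and H2B pairs, by distance from the midpoint between the start sites (x axis, bp, from -1500 to 1500); black lines and arrows mark each start and its direction. The space between the lines is free of peaks except for the single red bar of H2BC8 / H2AC8.

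A trough remained at members outside these pairs. Pairs were counted only between members with a listed start site, so this group can still hold head-to-head starts. It includes H2BC12, whose neighbour H2AC12 had no listed start site. It also includes H2BC3, H2BC10, H2AC18 and H2AC19, which lie next to the histone pseudogenes H2AC5P, H2AC10P, H2BC19P and H2BC20P. In the ERG library 12 of 32 such members had a covered start base, 37.5% (21.1 to 56.3), and 31 of 32 were covered 250 bp downstream. In the Vector library the counts were 2 of 22, 9.09% (1.12 to 29.2), and 15 of 22. A peak list gives intervals that passed a threshold, so an uncovered base can still hold fragments. The narrowest peaks were 294 bp in the ERG library against 288 bp in the Vector library.

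At the members that had peaks in both libraries, ERG-library summits held more fragments than Vector-library summits, also after scaling by the genome background, but not relative to the local background. Members with an ERG-library peak had a median of 76 fragments at their strongest summit (range 28 to 131, n = 55), against 50 over all genes with one. In the Vector library the median was 30 (range 14 to 57, n = 42), against 29. Over the 42 members with a peak in both libraries the median scaled ratio was 1.83 (range 1.24 to 2.68), against 1.496 over all 6049 such genes. It was above 1 at 42 of 42 members and below 1 at 0, against 92.1% and 7.92% of all such genes. Relative to the local background the order was mixed: the deposited fold was higher in the ERG library at 20 of the 42 members and lower at 22, against 73.8% and 26.2% of all such genes. The interval of the scaled ratio lay wholly above 1 at 39 of the 42 and held 1 at H3C6, H2BC9 and H4C14. When the ratio was scaled so that the median over all these genes was 1, the median of the members was 1.23. The family medians were 2.52 for H1 (3 genes), 1.85 for H2A, 1.79 for H2B, 2.36 for H3 and 1.86 for H4.

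Neighbours share peaks, and at 12 of the 42 members the strongest peaks of the libraries did not overlap. Each Vector-library peak was therefore also set against the ERG-library peak that overlapped it. All 40 Vector-library peaks at members were overlapped. Their scaled ratios ran from 1.17 to 2.68 with a median of 1.75, and 29 of 40 intervals lay wholly above 1, 72.5%. Over all genes 5302 of 5417 Vector-library gene-end peaks were overlapped. Their median scaled ratio was 1.49, and 44.1% of intervals lay wholly above 1. At H2AC15 / H2BC15 the overlapping peaks gave 121 and 51 fragments on the H2AC15 side and 102 and 57 on the H2BC15 side, scaled ratios of 1.64 (1.18 to 2.33) and 1.24 (0.888 to 1.75). At H3C15 they gave 70 and 35 fragments, a scaled ratio of 1.39 (0.911 to 2.14), below the 2.59 from its strongest peaks. At H4C5 they gave 57 and 28, a scaled ratio of 1.41 (0.882 to 2.30), below the 2.004 from its strongest peaks.

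**Figure D5:**
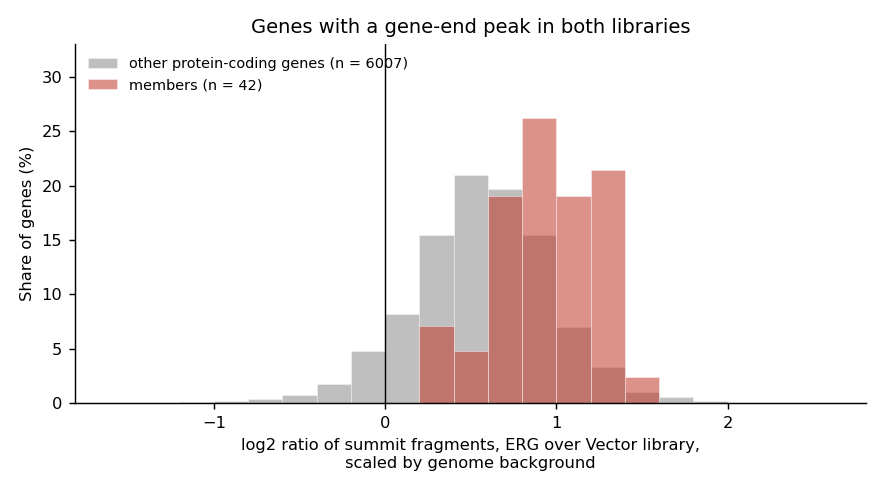
Distribution of the log2 ratio of summit fragments, ERG over Vector library, scaled by genome background (x axis), as a share of genes (y axis, percent), for the 42 histone genes and the 6007 other genes with a gene-end peak in both libraries. All 42 histone genes lie right of 0, and most lie right of the main mass of the other genes.

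The local background that the peak caller used moved with these values, and over it the one-sided order of the libraries was no longer seen. Its median at the strongest member peaks was 22.9 fragments (ERG library) and 7.05 (Vector library), against 8.64 and 4.98 over all genes. The deposited fold of the members over that background was below that of all genes in either list, with medians of 3.76 against 5.17 for the ERG library, and 3.87 against 4.93 for the Vector library. Between libraries the median ratio of the folds, ERG over Vector, was 0.976 (range 0.720 to 1.28) over the 42 members, against 1.14 over all 6049 genes. H2AC15 had a fold of 3.86 in the ERG library against 5.36 in the Vector library, H4C14 4.21 against 5.59 and H1-4 3.82 against 4.25. The labels and notes used here do not say whether it came from an input library, and its part in the fragment numbers was not tested. The strongest member peaks had a median width of 780 bp in the ERG library against 525.5 bp in the Vector library, against 904 and 572 bp over all genes.

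Length covered at the gene ends was greater in the ERG library at most members. It had a median of 1055 bp over the 66 members in the ERG library against 432 bp in the Vector library. It was greater in the ERG library at 53 members and in the Vector library at 2, while 11 had no peak in either. Over all 20037 genes it was greater in the ERG library at 8913 (44.5%), in the Vector library at 324 (1.62%) and equal at 10800. Among genes where the lengths differed, the ERG library thus had the greater length at nearly all genes, members or not. The 2 exceptions among the members were H2BC13 and H2AC13, with 941 bp in the ERG library against 951 bp in the Vector library.

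Peaks within reach of a member made up much of both cluster windows. The windows held 116 ERG-library peaks covering 87777 bp and 56 Vector-library peaks covering 28818 bp. Of these, 55 and 40 lay within 1 kb of a member end. At member ends all 40 Vector-library peaks were overlapped by the other list, near the share over all genes (5302 of 5417 Vector-library gene-end peaks). Of the 55 ERG-library peaks at member ends 37 (67.3%) were overlapped, against 44.8% of all 116 in the windows. The share over all ERG-library gene-end peaks was not computed. On chromosome 1, 11 of 11 ERG-library peaks at member ends were overlapped. Members shared peaks widely, since 27 of the 55 ERG-library peaks were within reach of 2 members and 4 of 3 members. The remaining ERG-library peaks lay at other protein-coding genes (18), at tRNA genes alone (11) or at none of these (32), and 5, 3 and 8 Vector-library peaks did so.

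The chromosome 6 cluster is also known for its many tRNA genes. Of 104 tRNA genes in both windows, 4 had peaks in both lists, 13 only in that of the ERG library and 87 in neither. Of 339 elsewhere, 65 had both, 49 the ERG library alone, 2 the Vector library alone and 223 neither. Median summit fragments of peaks at tRNA genes alone were 30 in the ERG library against 19 in the Vector library, below the 73 and 30 of peaks at members. Of 15 histone pseudogenes in the windows, 5 had both, 2 the ERG library alone and 8 neither, and no peak lay at a pseudogene without also lying at a member, another protein-coding gene or a tRNA gene.

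Genes for histone transcription, message processing and chaperones formed a list of 25. Peaks were found in both libraries at 14 of them (56%, against 30.2% of all genes) and in the ERG library alone at 10 (40%, against 15.6%). CHAF1B had none in either (4%, against 53.8%). NPAT, the coactivator of these promoters, had 44 and 23 fragments, CASP8AP2 31 and 17, and SLBP, which binds the stem-loop at the end of histone messages, 193 and 83. POU2F1 had 77 and 41 fragments. The U7 snRNP genes LSM10 and LSM11 had 50 and 11 fragments in the ERG library and no Vector-library peak. The same held for the H4 promoter factor HINFP (20 fragments), the cell cycle regulators E2F1 (25), CDK2 (31), CCNE1 (36), CCNE2 (56) and CDC25A (43), the chaperone gene ASF1B (44) and CSTF2 (11). Of the 11 genes on this list without a Vector-library peak, 10 had one in the ERG library, 90.9% (58.7 to 99.8). This share was 22.5% for all such genes and 73.7% (48.8 to 90.9) for such ribosomal protein genes. The median scaled ratio of the 14 genes with both was 1.42, beside 1.496 over all genes.

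Replication-independent histone genes, which encode variants made throughout the cell cycle, had peaks in both libraries at 9 of 12 (75%, against 30.2% of all genes). H1-10 had one in the ERG library alone (30 fragments), and MACROH2A2 and H3-5 had none in either. H3-3A, a source of H3.3, had 133 and 65 fragments, and H3-3B had 152 and 60. H2AZ1 had 97 and 26. The median scaled ratio of the 9 genes was 1.75. Of 5 histone genes of the clustered type that lie outside both windows, the pair H2AC25 and H2BC26 had 61 and 24 fragments, H4C16 had 38 in the ERG library alone, and H2BC12L and H3-4 had no peak in either.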

How the data were processed

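H3K27ac ChIP-seq peak lists of 1 ERG and 1 Vector library were used; chromatin was cut with micrococcal nuclease, per the labels' protocols. The authors called peaks per library, and Bowtie2, MACS2, deepTools and hg38 are named, without versions, in the submitters' processing notes. The lists give a deposited score, a deposited fold (ratio) over local background, and per-peak deposited −log10 values of p and of q (lowest −log10 q-value 1.31 and 1.32). Fragments were recovered from the deposited fold and −log10 p-value, and came out whole for 19671 and 9161 peaks within a relative tolerance of 0.0001. The calculation was tested on data simulated with the same formulas, with backgrounds below the median of ERG-library member peaks. Such a test cannot show whether the deposited values follow those formulas. Gene ends, start sites and promoters came from RefSeq GRCh38.p14. Genes were named by rule: all H1, chromosome 1 and peak-free members, and, for each other family on chromosome 6, the 4 with the largest covered-length difference and the 2 with most Vector-library fragments. Other members were named where a count or comparison turned on them. Shares have exact Clopper-Pearson intervals and ratios exact conditional binomial intervals (SciPy 1.17.1, Python 3.11.15). Members and lists were chosen with earlier results of these data known. Alternatives covered windows, peak thresholds, overlap and scaling. Protein sequences were not used here.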

Additional observations from a re-analysis of the deposited data

How the results depend on the processing

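No paired analysis was possible because each group had 1 library, and no replicate could be left out. Windows of 0.5 and 2.5 kb, summits only, a thinned ERG list and start sites alone (61 members) kept every status count within 1.5 times its value, as did requiring a peak over the gene record itself, an alternative chosen after seeing the data (34 members with both, 18 the ERG library alone, 0 the Vector library alone, 14 neither). With the upper 50% of each list by score, 18 members had both, 26 the ERG library alone and 22 neither, the windows held 58166 and 11997 bp of peaks, and 20 ERG-library and 20 Vector-library peaks were shared. With the ERG list limited to the Vector list's length, 4 members had the ERG library alone, 2 the Vector library alone and 20 neither, and ERG-library peaks covered 56573 bp. With a −log10 q-value of at least 5, 20 members had the ERG library alone. The median scaled ratio became 1.225 when scaled by the median ratio of shared end peaks (2.16), and 1.81 with overlapping peaks. With the deposited fold over the local background in place of scaled fragments, also chosen after seeing the data, the median ratio was 0.976, so its direction turned. Requiring an overlap of 50% changed the shared peaks to 51 and 53. How many members had the ERG library alone thus depends on the thresholds and list lengths. Vector-library summits at members held 14 to 57 fragments each, and whether depth limited that library was not tested.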
